A study of Mus musculus with 13 samples.

Results

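The genes described here encode the ion-pumping ATPases and the related P-type ATPases of the mouse stomach, apart from the gastric proton pump itself. They were chosen by symbol: every gene whose symbol starts with Atp1a, Atp1b, Atp2a, Atp2b, Atp2c, Atp6v, Atp6ap, Atp7, Atp8, Atp9, Atp10, Atp11, Atp12a or Atp13a, with the brightest probeset that names only that gene. This gave 59 of the 18820 genes measured. Other genes with these prefixes were not analysed here.

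RNA was measured on 13 arrays in 2 experiments. The first held Troy-positive chief cells (chief a, b and c) and Troy-positive parietal cells (parietal a and b) of the gastric corpus, sorted from mice with an EGFP-ires-CreERT2 cassette knocked into Tnfrsf19, the gene of the receptor Troy, together with 2 arrays of whole corpus glands (glands a and b). About 100000 cells sorted from the glands of 10 mice went onto each array of sorted cells. The sample labels name the gastric corpus as the source, but 1 sentence of the growth protocol speaks of intestines, and the sample labels were followed. Chief b stood apart by squamous epithelium markers, as given with the V-ATPase values, and glands b by muscle markers, as given with Atp10b. The labels of the gland arrays name no genotype, and no ages or sexes were given. The other experiment used organoids, each culture begun from single sorted Troy-positive chief cells, in EGFNWR medium (EGF, gastrin, FGF10, Noggin, Wnt3a and Rspondin) or in ER medium (EGF and Rspondin), with arrays a, b and c of each. The labels speak of different organoid cultures but not of different animals, so p-values measure the spread between these arrays. Glands were processed directly while the sorted cells were also trypsinized and sorted by flow cytometry, so handling and cell type cannot be told apart in comparisons with glands. The labels fit the markers only in part. The 8 parietal marker genes averaged between 9.13 and 10.87 on the log2 scale in the chief arrays. Their means were 11.02 and 11.15 in the parietal arrays and 5.56 to 6.08 in the organoids. Among these 8, Aqp4 and Ezr stayed bright in ER organoids, at means of 10.18 and 12.17. Atp4a and Atp4b, the proton pump genes, were as bright as 12.97 and 13.01 in the mean of the chief arrays, against 13.12 and 13.26 in parietal cells. The 5 chief marker genes measured averaged between 11.56 and 12.33 in the chief arrays and 10.96 and 10.89 in the parietal arrays. Their means were 11.68 and 11.04 in glands and 6.19 to 7.83 in the organoids. In EGFNWR organoids Pgc, Clps and Bhlha15 averaged 11.79, 10.91 and 7.76, but Chia1 and Pga5 only 4.15 and 4.17. In ER organoids Pgc and Bhlha15 averaged 8.41 and 5.13. Each of the 5 read higher on all chief arrays than on both parietal arrays. Tnfrsf19 averaged 7.97 in chief cells, 8.52 in parietal cells and 5.16 in glands.

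P-type ATPases form a phosphorylated intermediate while they move an ion or a lipid across a membrane. The sodium pump sets the sodium and potassium gradients, SERCA, PMCA and SPCA pumps remove calcium from the cytosol, Atp7a and Atp7b move copper, P4 ATPases flip lipids between the leaflets of a membrane, and P5 ATPases carry polyamines or membrane proteins. The V-ATPase is a rotary machine of another family, in which a cytosolic V1 sector burns ATP and a membrane V0 sector carries protons into lysosomes, endosomes and secretory granules. Parietal cells are known for acid secretion by the proton pump and chief cells for granules of digestive enzymes.

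Values are log2 intensities, so a difference of 1 is a doubling. The median of an array lay between 5.01 and 5.30, and a gene below it is not shown to exceed background. Brightness depends on the probe, so levels of different genes are not compared with each other. Of the 59 genes, 37 lay above the median on all 13 arrays, 13 lay below it on all and 9 were mixed. In chief cells 66.1% of the members were above the median on every array, compared with 48.9% of all genes, and in ER organoids these shares were 71.2% and 52.8%.

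**Figure D1:**
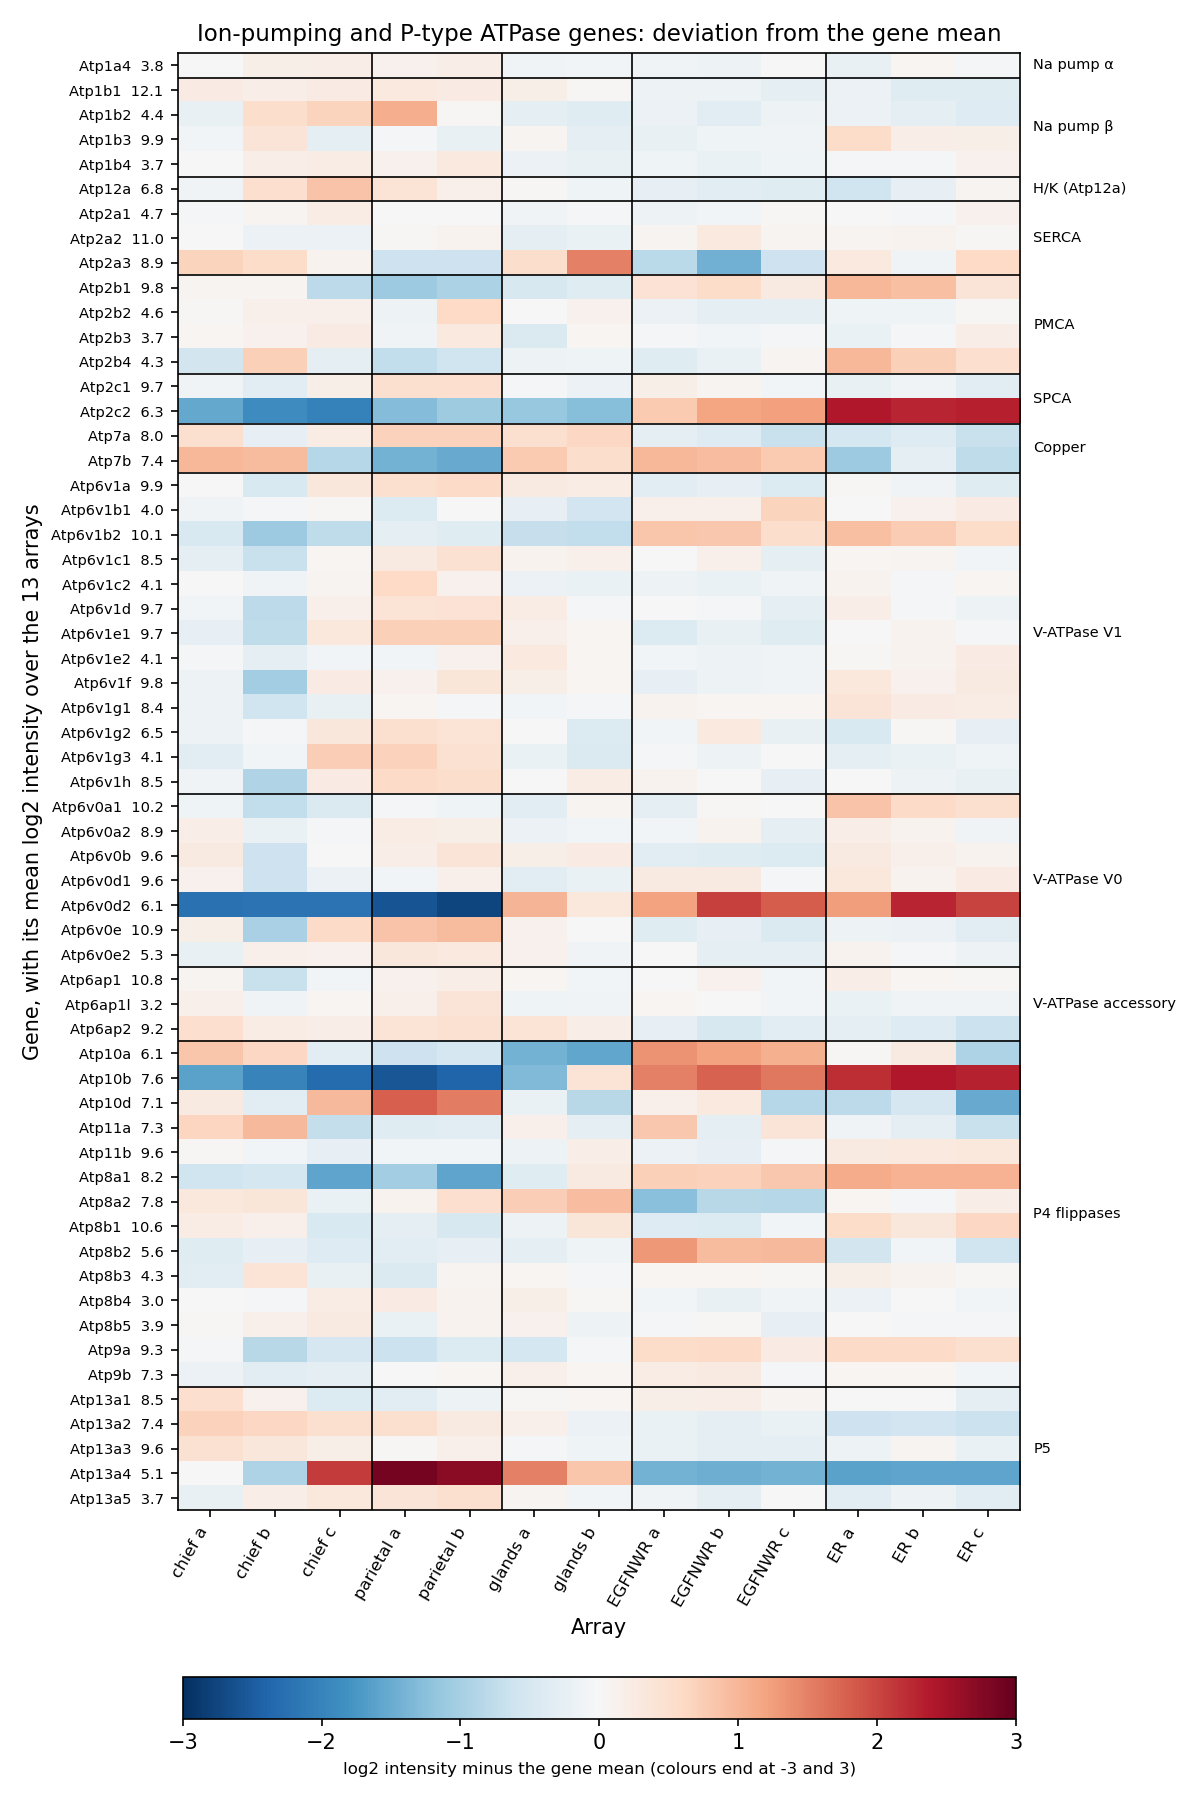
Each row is 1 of the 59 genes, grouped by role, and each column 1 of the 13 arrays; colour gives the log2 intensity minus the gene's mean over the arrays, and the number beside each symbol is that mean. Most V-ATPase rows are pale, while Atp6v0d2, Atp2c2, Atp10b and Atp13a4 have the strongest colours, with ranges of the 5 group means of 4.53, 4.15, 4.79 and 4.38.

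The V-ATPase was the largest family, with 13 genes of the V1 sector, 7 of the V0 sector and 3 accessory genes. Of these 23, 16 were above the array median on all arrays, with values from 6.02 to 11.84, and 5 were below it on all. The 5 were Atp6v1b1, Atp6v1c2, Atp6v1e2, Atp6v1g3 and Atp6ap1l, named here after their values were seen; the first 4 are alternative isoforms of V1 subunits. The brightest V1 probeset was that of Atp6v1b2, the common B subunit, the brightest V0 probeset that of Atp6v0e, and the brightest accessory one that of Atp6ap1, with means of 10.13, 10.88 and 10.75 over all arrays. The transcription factor TFEB and its relatives are known to bind the palindrome TCACGTGA, the core of the CLEAR element, at many lysosomal genes. In the RefSeq promoter table (GRCm38.p6), 41 of the 59 members had a promoter, taken as 250 bases before to 50 after the start that the table uses. On either strand, TCACGTGA was in the promoters of 5 of these 41, Atp2b1, Atp6v0d1, Atp6v0e, Atp6v1a and Atp7a, and in 1.12% of the 27025 genes of the table. It contains the shorter E-box CACGTG, which was in 7 of the 41 and in 8.09% of all. A match is a description of the letters and shows no binding. The stretches around the match in 2 V-ATPase genes are shown because they let a reader see the shared element in subunits of one enzyme, with TCACGTGA in capitals. They lie on the minus strand at chr8:105566035-105566128 (Atp6v0d1) and the plus strand at chr17:26676338-26676425 (Atp6v0e). The match begins at position -4 and 3, counted from the gene start as 1. For Atp6v1a the table's start lies inside the annotated span of the gene, and its stretch is not shown.
Atp6v0d1: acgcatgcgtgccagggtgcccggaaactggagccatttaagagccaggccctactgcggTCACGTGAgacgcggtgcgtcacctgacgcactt
Atp6v0e: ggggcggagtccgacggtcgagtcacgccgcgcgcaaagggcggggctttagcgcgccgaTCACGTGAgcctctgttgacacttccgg

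Atp6v0d2 encodes the d2 isoform of the stalk subunit that joins V0 to V1 and is best known from osteoclasts and macrophages. Its 3 chief arrays read 3.86, 3.89 and 3.88, and its parietal arrays 3.51 and 3.34. It read 7.12 and 6.40 in glands a and b, 7.30, 8.15 and 7.92 in EGFNWR organoids a, b and c, and 7.35, 8.38 and 8.13 in ER organoids a, b and c. All 5 arrays of sorted cells were below the array medians and all 8 other arrays above them, with no overlap. From low to high the group means were 3.43 in parietal cells, 3.88 in chief cells, 6.76 in glands, 7.79 in EGFNWR organoids and 7.95 in ER organoids. Parietal and chief cells did not differ past the threshold (difference 0.45, 95% interval -0.089 to 0.99, limma adjusted p = 0.466), nor did the organoid groups. Glands and organoids were not tested against each other.

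**Figure D2:**
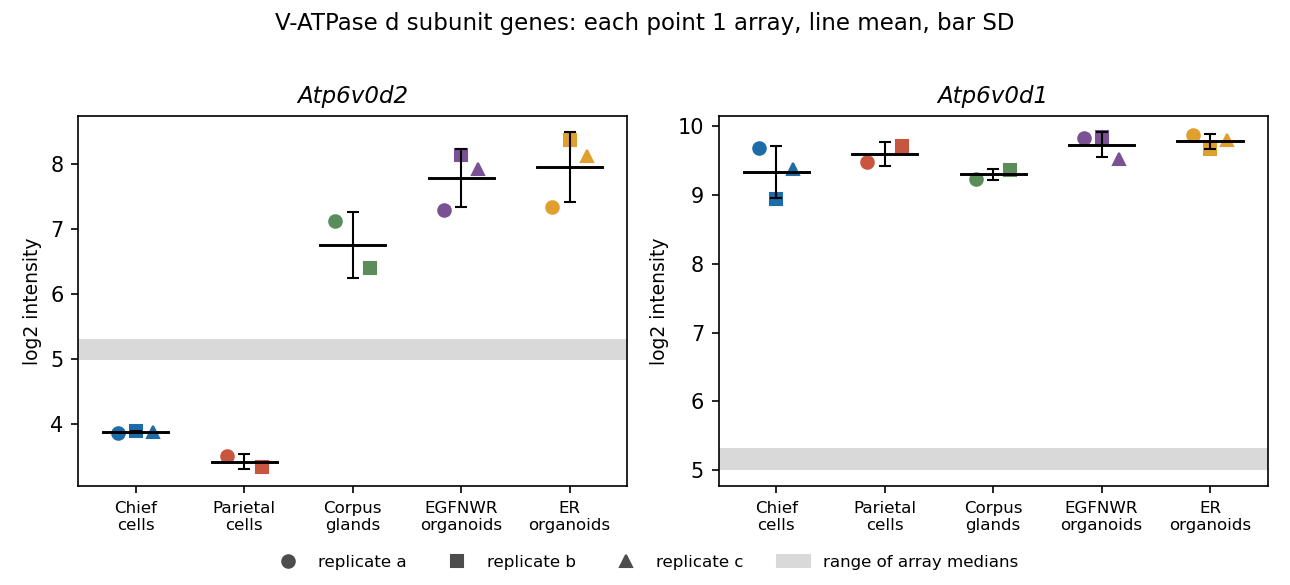
Log2 intensity (vertical axes) of the genes of both d subunit isoforms by group; each point is 1 array, the line the group mean, the bar the SD and the grey band the range of the array medians, 5.01 to 5.30. Atp6v0d2 lies below the band in sorted cells and above it in glands and organoids, while all arrays of Atp6v0d1 lie between 8.94 and 9.88.

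Chief cells were lower in Atp6v0d2 than glands by 2.88 on the log2 scale, a difference of -2.88 (SE 0.23, 95% interval -3.42 to -2.34, limma adjusted p = 0.00417). Chief minus glands ran from -3.24 to -2.52 over the alternatives and stayed past the threshold in each of the 13 that measured it. Parietal cells differed from glands by -3.34 (SE 0.26, limma adjusted p = 0.00399). Without parietal a or without parietal b that call was lost, at adjusted p = 0.0817 and 0.119 with differences of -3.42 and -3.25, and 0 members were then called. EGFNWR organoids exceeded chief cells by 3.91 (SE 0.28, limma adjusted p = 2.12e-06), with 3.61 to 4.16 over the alternatives. Since sorted cells were below the array medians, the size of these differences is open. ER minus EGFNWR organoids was 0.16 (95% interval -0.55 to 0.87), so these 6 arrays could not tell a difference within that interval from 0. In each medium, organoid array a read lowest.

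The other d isoform gene, Atp6v0d1, which is used in most cells, read 9.69, 8.94 and 9.38 in chief cells, 9.48 and 9.72 in parietal cells and 9.24 and 9.36 in glands. In organoids it read 9.83, 9.84 and 9.52 in EGFNWR and 9.88, 9.67 and 9.80 in ER. Of the pairs compared, only parietal cells and glands did not overlap, and no comparison passed the threshold. The 95% interval of chief minus glands ran from -0.53 to 0.60 for Atp6v0d1, compared with -3.42 to -2.34 for Atp6v0d2.

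Some markers of other cell types were, like Atp6v0d2, lower in sorted cells than in glands. All 4 tuft cell markers were lower in chief cells than in glands and in parietal cells than in glands. Their chief minus glands differences were -3.56 for Rgs13, -2.53 for Dclk1, -1.91 for Trpm5 and -1.90 for Gnat3 (limma adjusted p from 0.000817 to 0.0463). Their mean was 6.45 and 6.75 on the gland arrays and between 3.96 and 4.35 on sorted-cell arrays. In EGFNWR organoids the tuft mean was 4.82 to 5.55 and in ER organoids 5.07 to 5.33. Tuft means in organoids thus lay below those of glands and above those of sorted cells. EGFNWR organoids exceeded chief cells by 1.84 for Rgs13 and 1.29 for Dclk1 (limma adjusted p = 0.000172 and 0.000216), while Trpm5 and Gnat3 did not pass. Of 5 enteroendocrine markers, Hdc and Sst were lower in chief cells than in glands, by -2.50 and -2.07 (limma adjusted p = 0.0294 and 0.0279). The mean of the 5 was 10.42 and 9.62 on the gland arrays and 7.78 to 8.93 on sorted-cell arrays. In the organoids, where Atp6v0d2 was highest, this mean was lowest, at 4.79 to 5.31. Of the 13 macrophage and osteoclast markers measured, 2 were above the array median on each gland array, Acp5 and Cd68. Csf1r and Adgre1, which define macrophages, averaged 4.07 and 3.42 in glands, below the medians. Acp5, the tartrate-resistant acid phosphatase of osteoclasts, read 8.64 and 9.36 in glands and 6.16 and 6.07 in parietal cells, and its parietal minus glands difference was -2.89 (limma adjusted p = 0.0373). Cd68 ran the other way, at 7.36, 9.13 and 6.55 in chief cells and 6.01 and 6.65 in glands, with overlap and no call (chief minus glands 1.35, limma adjusted p = 0.386). Between EGFNWR organoids and chief cells 2 of the 13 were higher and 1 lower. Cd14, a lipopolysaccharide co-receptor, was higher by 4.18 (limma adjusted p = 2e-06), Acp5 was higher by 1.27 (limma adjusted p = 0.00668), and Ctsk, the osteoclast cathepsin, fell by 0.91 (limma adjusted p = 0.00787). In ER organoids, 3 of the 13 were higher than in EGFNWR organoids, namely Acp5, Cd68 and Csf1r. Of 5 ionocyte and intercalated cell markers, only Car2 was above the median on any array, and the defining Foxi1 averaged 4.08 in glands. The part of these cells in the Atp6v0d2 values was not tested, and in bulk RNA fewer cells of a type and less RNA per cell cannot be told apart.

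Between chief and parietal cells, 0 of the 59 members passed the threshold of an adjusted p of 0.05, as did 0 of all genes (0%). At an unadjusted p under 0.05 there were 14 members, 4 higher and 10 lower in chief cells, compared with 12.1% of all genes, 5.86% higher and 6.26% lower. The arrays of the groups did not overlap for 8 members higher and 20 lower in chief cells, compared with 10.9% and 19.2% of all genes. The median member difference was -0.16, and that of all genes -0.045.

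Of the V-ATPase genes, 21 of 23 had a negative chief minus parietal difference, with a median of -0.38. Among all genes 8291 of 18820 differences were positive. Atp6v0e read 11.06, 9.90 and 11.46 in chief cells and 11.73 and 11.84 in parietal cells, with the chief arrays spread over a wider range than the gap to parietal cells. Atp6v1e1, a peripheral stalk subunit, read 9.42, 8.91 and 10.00 against 10.38 and 10.39. All chief arrays of both genes lay below the parietal ones. For the V-ATPase genes the dimmest chief array was mostly chief b, with 17 of the 23, or 73.9%, compared with 32.2% of all genes. Chief b was dimmest for 8 of 8 parietal markers too, while chief c was the brightest for 8 of 8 of them and for 11 of the 23 V-ATPase genes. Chief b also stood apart in 6 squamous epithelium markers, with a mean of 8.56 and 5 of the 6 above the array median, compared with means of 4.42 to 5.16 on the other arrays. Without chief b, the V-ATPase median was -0.20. The part of parietal or squamous RNA in the chief arrays was not tested.

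Chief c set the outcome of single genes. Without it, 7 members passed the threshold, when 7.01% of all genes did, and these 7 are named because that fit called them. Genes chosen this way tend to have chief c toward the parietal arrays, so that place is no separate result. Atp7b, a copper exporter best known from the liver, read 8.43 and 8.38 in chief a and b, 6.58 in chief c and 6.02 and 5.93 in parietal cells. Chief a and b stood well above parietal cells and chief c close to them. The chief minus parietal difference was 1.82 (SE 0.52, limma adjusted p = 0.348) over all arrays and 2.43 (SE 0.18, limma adjusted p = 0.00431) without chief c. Atp13a4, a P5 ATPase, ran the other way: parietal cells read 7.98 and 7.82, while the chief arrays a, b and c read 5.10, 4.18 and 7.21. Its difference of -2.40 over all arrays (limma adjusted p = 0.348) was -3.26 without chief c (limma adjusted p = 0.00621). Atp10d, a glucosylceramide flippase, read 7.33, 6.75 and 8.04 against 8.85 and 8.59, again with chief c nearest to the parietal arrays. The other genes called without chief c were Atp10a, Atp11a and Atp2b1, with higher values in chief cells by 1.30, 1.16 and 1.11, and Atp6v1e1, with a difference of -1.22. For none of these 7 did the call hold with all 3 chief arrays.

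**Figure D3:**
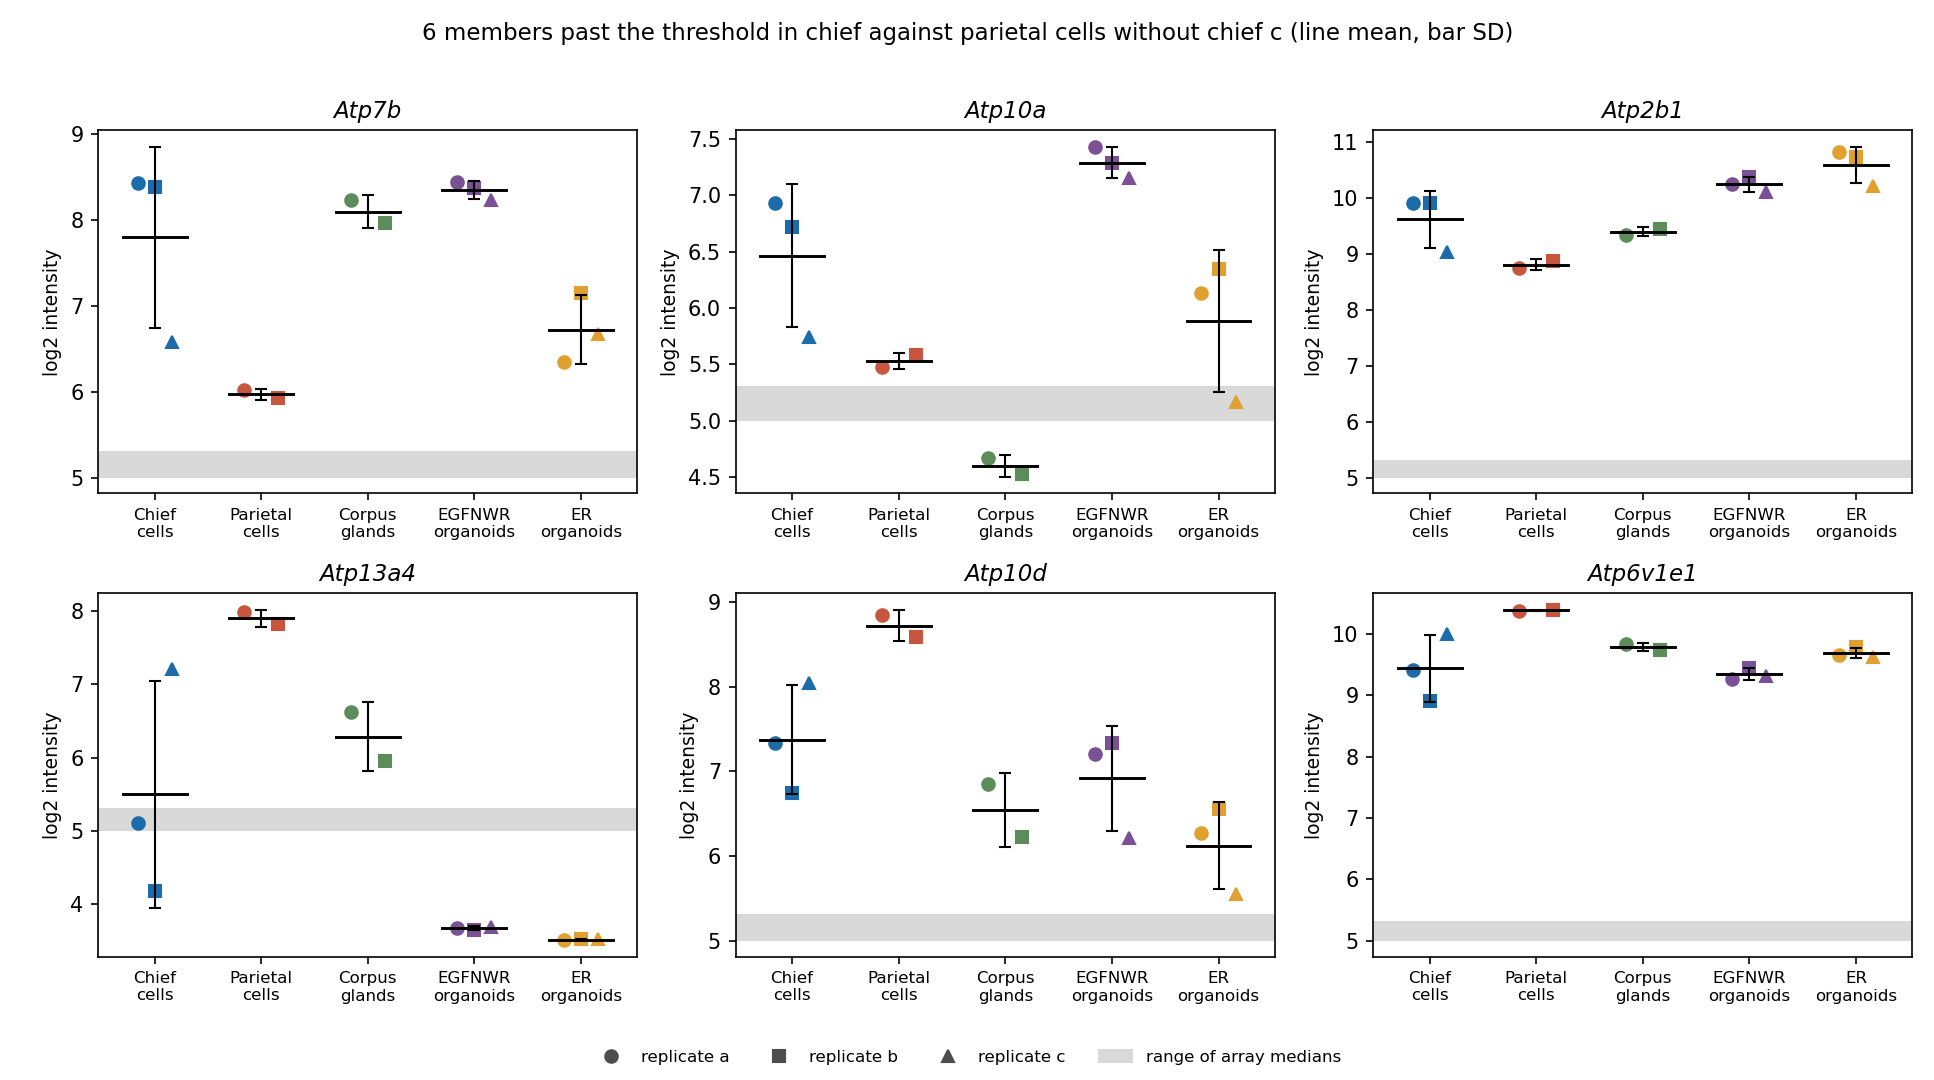
Log2 intensity (vertical axes) of 6 of the 7 members called between chief and parietal cells when chief c was left out; points are arrays, lines group means, bars the SD and the grey band the range of array medians. In each panel the triangle of chief c lies, of the chief arrays, nearest to the parietal arrays, as for Atp7b at 6.58 between 8.38 in chief b and 6.02 in parietal a. Choosing genes by a fit without chief c favours this pattern.

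Between chief cells and glands, Atp6v0d2 was the only member past the threshold, 1 of 59, compared with 0.478% of all genes. The median difference was 0.0017 over the members and 0.052 over all genes. The largest other difference was that of Atp10a, a phosphatidylcholine flippase, which read 6.93, 6.72 and 5.74 in chief cells and 4.67 and 4.53 in glands. All chief arrays lay above the glands, by 1.86 in the mean (SE 0.34, limma adjusted p = 0.0707), and the gene passed at the same threshold in 5 of the alternatives, among them without chief c, at 2.23 (limma adjusted p = 0.00813). Gland values of Atp10a were below the array medians. Atp10b, another flippase of the same subfamily, read 6.02, 5.61 and 5.31 in chief cells but 6.29 and 8.03 in glands. Glands b had 3 of 6 muscle markers above the array median and glands a 0, with means of 5.15 and 4.03. The part of muscle RNA was not tested. The gland arrays of Atp10b stood far apart. The gene passed without glands a, with a chief minus glands difference of -2.38 (limma adjusted p = 0.028), and also with all 13 arrays in 1 fit.

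Between parietal cells and glands 2 of 59 members passed, compared with 1.62% of all genes. Atp6v0d2 was lower in parietal cells, as were 1.39% of all genes, and Atp10d higher, as were 0.228%. Atp10d read 8.85 and 8.59 in parietal cells and 6.85 and 6.23 in glands, with no overlap. The difference of 2.18 (SE 0.41, limma adjusted p = 0.0485) was no longer past the threshold when any of these 4 arrays was left out, with adjusted p from 0.0594 to 0.336, or after repeated quantile normalization, which left 0 higher and 1 lower member. Atp2a3, the SERCA pump known from epithelia and blood cells, read 8.26 and 8.25 in parietal cells and 9.40 and 10.38 in glands. Its difference of -1.64 missed the threshold (SE 0.34, limma adjusted p = 0.0575). At the same threshold it passed in 4 alternatives: without glands a at -2.13 (limma adjusted p = 0.0312), in the fit blocked on replicate letters (limma adjusted p = 0.0265), with array weights and with all 13 arrays in 1 fit. Of the V-ATPase genes 21 of 23 had a positive difference, with a median of 0.30. The median of all genes was itself 0.14 in this comparison, and with arrays centred on their median the values were 0.48 and 0.32. Without overlap, 17 of the 23 were higher in parietal cells, and so were 41.6% of all genes. Of the partner and lysosome genes, Mt2, a metallothionein that binds zinc and copper, was the only one past the threshold in the first experiment, at -1.77 (limma adjusted p = 0.0348) in parietal cells against glands.

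In the organoids 17 of 59 members differed between ER and EGFNWR medium, 13 higher and 4 lower in ER, compared with 19.2% of all genes, 9.13% higher and 10.1% lower. The median difference was 0.067 over the members and 0.0067 over all genes. Without overlap between the 3 arrays of each medium, 18 of the 59 were higher and 8 lower in ER, compared with 36% of all genes in either direction. With each of the 6 arrays left out in turn, 9 of the 17 passed every time and 8 did not, and the count was 10 without ER a and 10 without EGFNWR a.

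**Figure D4:**
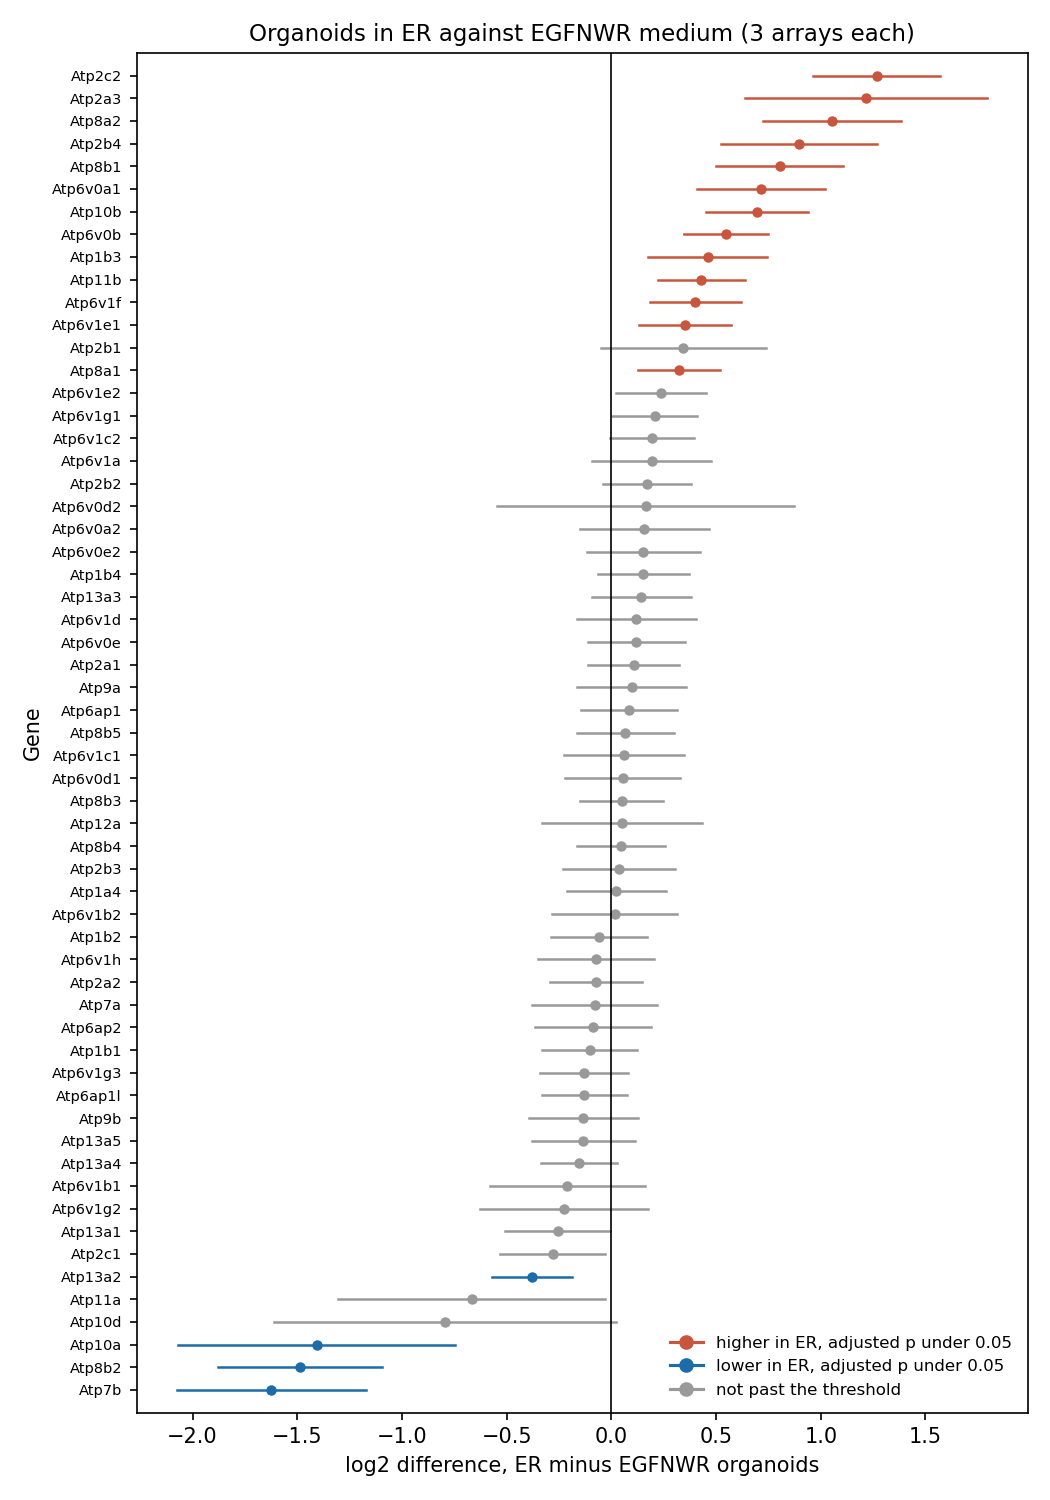
Log2 difference (horizontal axis) of ER minus EGFNWR organoids for the 59 members, sorted by size; points are estimates, lines 95% intervals, red and blue mark genes past the adjusted p threshold of 0.05. The members range from -1.62 for Atp7b to 1.27 for Atp2c2, with 13 red and 4 blue.

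Of the copper ATPases, Atp7b was lower in ER. It read 8.44, 8.37 and 8.23 in EGFNWR and 6.35, 7.15 and 6.67 in ER. All ER arrays lay well below the lowest EGFNWR array, and the difference was -1.62 (SE 0.19, limma adjusted p = 0.00447). Atp7a, the copper exporter of most other tissues, read 7.73, 7.65 and 7.36 against 7.50, 7.64 and 7.36, with overlap and no call. Of 6 copper partner genes, the metallothioneins Mt2 and Mt1 fell by 1.63 and 1.32, and Atox1, the chaperone that hands copper to these ATPases, rose by 0.37 (limma adjusted p = 0.00933, 0.00447 and 0.031). Mt1 read 11.74, 11.69 and 11.43 in EGFNWR and 10.03, 10.49 and 10.38 in ER, without overlap.

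Of the 9 calcium pump genes, 3 were higher in ER and none was lower. Atp2c2, the SPCA pump of secretory epithelia that loads the Golgi with calcium and manganese, read 7.07, 7.46 and 7.50 in EGFNWR and 8.67, 8.56 and 8.60 in ER. The difference was 1.27 (SE 0.13, limma adjusted p = 0.00447), with 1.13 to 1.44 over the alternatives. Atp2a3 read 8.06, 7.44 and 8.26 against 9.17, 8.77 and 9.47, with every ER array above every EGFNWR array. It rose by 1.22 (SE 0.25, limma adjusted p = 0.0143), and without ER a its adjusted p was 0.0543. Atp2b4, a plasma membrane pump, rose by 0.90 (SE 0.16, limma adjusted p = 0.00911), but its values of 3.94, 4.10 and 4.38 against 5.29, 5.01 and 4.81 lay near or below the array medians. The brightest calcium pump probesets of each family, those of Atp2a2, Atp2b1 and Atp2c1, did not pass. Of 8 calcium partner genes 4 were higher, among them the store-operated channel Orai1 by 0.78 and its sensor Stim2 by 0.66. Another 2 were lower, among them the calcium-binding chaperone Calr, which fell by 0.77 (limma adjusted p = 0.0113, 0.00916 and 0.00666).

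Of the 14 P4 flippases 5 were higher and 2 lower in ER. Atp8b2 read 6.95, 6.60 and 6.62 in EGFNWR and 5.09, 5.57 and 5.05 in ER. It fell by 1.49 (SE 0.17, limma adjusted p = 0.00447) to values close to the array medians; in sorted cells and glands it lay between 5.26 and 5.52. Atp10a read 7.43, 7.29 and 7.15 against 6.13, 6.35 and 5.17, with ER c lowest. It fell by 1.41 (SE 0.28, limma adjusted p = 0.0139), a call lost without EGFNWR a or b, at adjusted p of at most 0.0601. Atp8a2, a phosphatidylserine flippase, read 6.50, 6.94 and 6.90 against 7.82, 7.71 and 7.97. It rose by 1.05 (SE 0.14, limma adjusted p = 0.00471), and its EGFNWR arrays were the lowest of all 13.

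Atp8b1, the flippase whose loss causes familial cholestasis and the brightest P4 probeset, read 10.22, 10.21 and 10.54 in EGFNWR and 11.18, 10.95 and 11.25 in ER, and rose by 0.80 (SE 0.13, limma adjusted p = 0.00692). Atp10b read 9.13, 9.38 and 9.19 against 9.83, 10.03 and 9.93. Its rise of 0.70 (SE 0.10, limma adjusted p = 0.00572) was small beside its gap to chief cells. Atp11b rose by 0.43 and Atp8a1 by 0.32 (limma adjusted p = 0.0153 and 0.0337), and each lost its call when single organoid arrays were left out. Atp10d missed the threshold but passed without EGFNWR c, and also in the fit blocked on replicate letters, where it fell by 0.79 (SE 0.095, limma adjusted p = 0.00438) and 18 members were called. In each medium its array c read lowest, at 6.21 in EGFNWR and 5.55 in ER. Of 5 flippase partners, the beta subunit gene Tmem30b rose by 0.55 and the scramblase gene Ano6 fell by 1.09 (limma adjusted p = 0.0175 and 0.0359).

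Of the 23 V-ATPase genes 4 were higher and 0 lower in ER, with a median difference of 0.12 and 17 positive. Atp6v0a1, an isoform of the large membrane subunit, read 9.98, 10.27 and 10.25 in EGFNWR and 11.09, 10.82 and 10.73 in ER. It rose by 0.71 (SE 0.13, limma adjusted p = 0.00988) and kept its call in every alternative. Atp6v0b, a ring subunit, read 9.25, 9.24 and 9.18 against 9.86, 9.75 and 9.70, and rose by 0.55 (SE 0.086, limma adjusted p = 0.00655). Atp6v1f and Atp6v1e1, of the V1 sector, rose by 0.40 and 0.35 (limma adjusted p = 0.0234 and 0.0388), and both lost their calls when single organoid arrays were left out. Of 10 V-ATPase partners, Ncoa7 and Rnasek rose by 0.66 and 0.57 (limma adjusted p = 0.0108 and 0.0168). Of 11 lysosome genes, the sialidase gene Neu1 rose by 0.72 (limma adjusted p = 0.00785) and 0 fell.

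Among the rest, Atp1b3, a beta subunit of the sodium pump, read 9.72, 9.80 and 9.84 in EGFNWR and 10.49, 10.14 and 10.11 in ER and rose by 0.46 (SE 0.12, limma adjusted p = 0.0359). It lost its call without ER a or any EGFNWR array. Its second probeset, at 9.24, 9.33 and 9.28 against 9.97, 9.71 and 9.60, showed no overlap either. Atp13a2, a lysosomal polyamine exporter, read 7.15, 7.07 and 7.15 against 6.73, 6.79 and 6.71, a narrow spread, and fell by 0.38 (SE 0.082, limma adjusted p = 0.0176). Without ER a or EGFNWR a, it did not pass, nor with arrays centred on their median, where the difference was -0.21. Of 6 sodium pump partners, 0 passed; the brightest, Fxyd6, read 7.63, 7.38 and 8.51 against 5.86, 7.18 and 6.54. Tnfrsf19 itself was lower in ER by -2.31 (SE 0.34, limma adjusted p = 0.00568).

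EGFNWR organoids were set against the chief cells from which such cultures start. Culture and experiment cannot be told apart here, and the chief arrays are those of the earlier comparisons and the EGFNWR arrays those of the medium comparison. Of the 59 members 19 differed, 10 higher and 9 lower in organoids, compared with 40.3% of all genes, 24.1% higher and 16.2% lower. With each array centred on its median the split was 7 higher and 27 lower, of 34 called. Centring also moved the median of all genes to -0.37, and the share of all genes called in that fit is not given here. With arrays left out in turn, 13 of the 19 passed every time. The largest positive difference was that of Atp6v0d2, followed by Atp10b, Atp2c2 and Atp8a1.

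Atp10b read 6.02, 5.61 and 5.31 in chief cells, 5.06 and 5.22 in parietal cells and 6.29 and 8.03 in glands, and between 9.13 and 10.03 in the organoids. All 6 organoid arrays lay above all 7 others, and EGFNWR exceeded chief cells by 3.59 (SE 0.34, limma adjusted p = 1.4e-05). Atp2c2 rose from below the array medians in chief cells, at 4.74, 4.39 and 4.26, to 7.07, 7.46 and 7.50 in EGFNWR. The difference was 2.88 (SE 0.16, limma adjusted p = 3.04e-07), and the parietal and gland arrays, at 4.97 to 5.22, lay near the medians. Atp8a1, a phosphatidylserine flippase, read 7.65, 7.72 and 6.66 in chief cells and 8.96, 8.92 and 9.05 in EGFNWR, higher by 1.63 (SE 0.26, limma adjusted p = 0.000509). Each of these 3 kept direction and call in every alternative.

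Atp6v1b2 was the V1 gene with the widest range of group means. It read 9.68, 9.04 and 9.36 in chief cells, 9.86 and 9.76 in parietal cells, 9.44 and 9.39 in glands, 10.96, 10.94 and 10.65 in EGFNWR and 11.02, 10.89 and 10.69 in ER. All organoid arrays lay above all others, and EGFNWR minus chief was 1.49 (SE 0.17, limma adjusted p = 4.38e-05). The median difference over the 23 V-ATPase genes was 0.017, with 3 higher and 1 lower. The lower one was Atp6ap2, the accessory subunit also known as the prorenin receptor, at 9.71, 9.43 and 9.41 in chief cells and 8.97, 8.74 and 8.88 in EGFNWR. Its difference was -0.65 (SE 0.14, limma adjusted p = 0.00263).

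**Figure D5:**
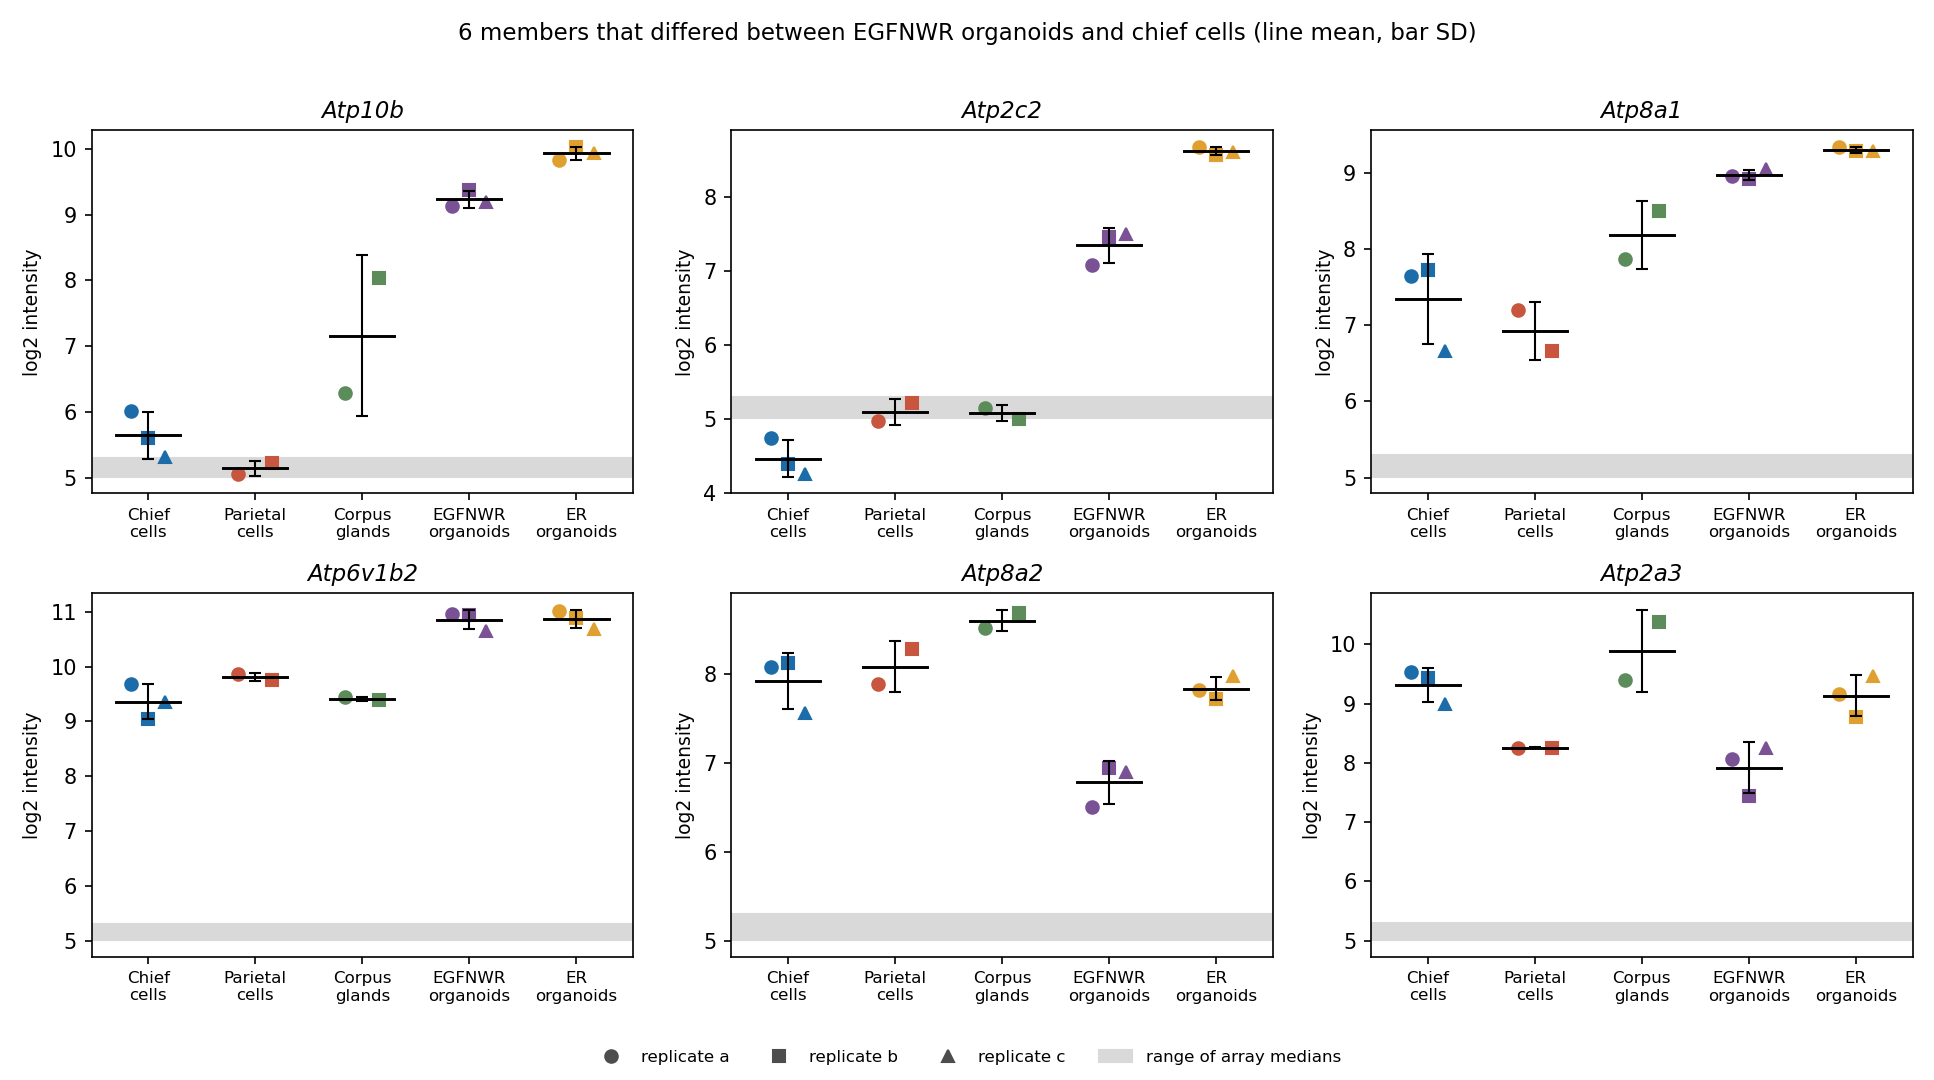
Log2 intensity (vertical axes) of 6 members that differed between EGFNWR organoids and chief cells; points are arrays, lines group means, bars the SD and the grey band the range of array medians. Atp10b, Atp2c2, Atp8a1 and Atp6v1b2 are higher in both organoid groups than in chief cells, whereas Atp8a2 and Atp2a3 are lower in EGFNWR organoids, at means of 6.78 and 7.92, than in chief cells, at 7.92 and 9.32.

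The largest negative difference was that of Atp13a4, which read 3.68, 3.64 and 3.69 in EGFNWR and 3.51, 3.52 and 3.52 in ER, below the medians, against 5.10, 4.18 and 7.21 in chief cells. EGFNWR minus chief was -1.83 (SE 0.55, limma adjusted p = 0.0194), and 4 alternatives lost the call, among them those without EGFNWR a or b, with a highest adjusted p of 0.08. Without chief c the difference was -0.97. In the arrays where Atp13a4 was brightest, parietal cells at 7.98 and 7.82, the mean of the 8 parietal markers was highest too. In the organoids, where Atp13a4 was dimmest, that mean was lowest. Of the 8, Aqp4 and Ezr did not follow it, with ER organoids at 10.18 and 12.17 and glands at 7.55 and 11.67. The part of parietal RNA in the result was not tested. Atp2a3 read 9.54, 9.43 and 8.99 in chief cells and 8.06, 7.44 and 8.26 in EGFNWR, a difference of -1.40 (SE 0.28, limma adjusted p = 0.00223). Atp8a2 read 8.08, 8.12 and 7.56 against 6.50, 6.94 and 6.90, a difference of -1.14 (SE 0.18, limma adjusted p = 0.000526). ER organoids were nearer to chief cells for both, at means of 9.14 and 7.83.

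Atp13a2 read 8.04, 7.97 and 7.84 in chief cells and 7.15, 7.07 and 7.15 in EGFNWR, a difference of -0.83 (SE 0.12, limma adjusted p = 0.000271). Atp13a3, another polyamine carrier and the brightest P5 probeset, read 10.07, 9.96 and 9.78 against 9.42, 9.35 and 9.34, without overlap, and differed by -0.57 (SE 0.12, limma adjusted p = 0.00298). Its second probeset read 6.89, 5.65 and 5.19 in chief cells and 6.12, 5.59 and 5.84 in EGFNWR, which overlap. Atp7a differed by -0.60 (SE 0.18, limma adjusted p = 0.0177), a call lost without EGFNWR c. Atp12a, the nongastric proton-potassium pump, read 6.71, 7.33 and 7.66 in chief cells and 6.56, 6.50 and 6.46 in EGFNWR. Its difference of -0.73 (SE 0.23, limma adjusted p = 0.0237) was lost without any EGFNWR array, chief b or chief c, and its second probeset lay below the array medians throughout, at 3.63 to 4.31.

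Atp1b1, the common beta subunit of the sodium pump, varied little within groups. It read 12.31, 12.26 and 12.31 in chief cells, 12.34 and 12.31 in parietal cells, 12.23 and 12.09 in glands, 11.91, 11.91 and 11.75 in EGFNWR and 11.87, 11.70 and 11.69 in ER. The SD of the chief arrays was 0.029, and EGFNWR minus chief was -0.44 (SE 0.11, limma adjusted p = 0.00731). Atp1a4, the alpha isoform of sperm, lay below the array medians on all arrays, and Atp1b2 above the median on 1 array, parietal a at 5.47. Atp2b1, the brightest PMCA probeset, read 9.91, 9.91 and 9.03 in chief cells and 10.25, 10.37 and 10.10 in EGFNWR. Its difference of 0.62 (SE 0.23, limma adjusted p = 0.049) lost its call without any EGFNWR array or without chief c. Atp2a2, the SERCA pump of most cells, read between 10.71 and 11.27 on all arrays and passed in no comparison, and Atp2c1, the common SPCA pump, read between 9.36 and 10.20 and passed in none.

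Over the 5 comparisons 30 members passed at least once and 29 never did. Of those 29, 13 were above the array median on all arrays, 13 below it on all and 3 mixed. Of the 30, 7 passed in both comparisons with EGFNWR organoids, which share those arrays. The shares of all genes that passed at least once or in both were not counted. EGFNWR organoids minus chief cells alone called 40.3% of all genes, and ER minus EGFNWR organoids 19.2%.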

How the data were processed

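The 13 mouse RNA samples were measured on 1 Affymetrix array each. The authors deposited log2 intensities for 35556 probesets, made with RMA and Affymetrix Power Tools per the submitters' processing notes. Their versions were not named in the notes. After RMA all arrays have nearly 1 distribution of values, which hides a shift common to most genes. No detection call was used. The number of arrays limits the precision.

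Platform annotation gave 21218 probesets 1 symbol, 1881 several and 12457 none; 21185 single-symbol probesets matched RefSeq (GRCm38.p6) and 0 symbols changed. A gene was represented by whichever of its single-symbol probesets was brightest on average over the 13 arrays. Second probesets exist for 6 members.

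Groups followed the titles. With limma 3.58.1 (R 4.3.3; lmFit, eBayes), the 7 arrays of the first experiment and the 6 organoid arrays were fitted separately, and EGFNWR minus chief over all 13. Adjusted p is Benjamini-Hochberg over 18820 genes, threshold 0.05. The tests were checked on simulated data. Intervals are 95% intervals of single genes from the fit.

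Deviations of same-letter organoid arrays correlated at 0.184, 0.233 and 0.386, though the labels state no pairing. The main fit used no pairing, so its SEs, intervals and adjusted p do not allow for it. A fit with the letter as a block was run as an alternative. Letters of the first experiment were taken as names.

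Members, lists and tests were chosen with earlier results of these data known. Named are Atp6v0d2, Atp6v0d1, members past the threshold in the first experiment or between media, the brightest and the most variable member of each role, the 4 largest positive and 4 largest negative calls of EGFNWR minus chief, and up to 3 called genes of each partner or lysosome list (or the brightest); others are said to be outside this rule or are named in passing with no test. Alternatives covered normalization, dim genes, variance model, array weights, probeset choice, arrays left out, the block, the arrays fitted and the threshold.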

Additional observations from a re-analysis of the deposited data

How the results depend on the processing

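Counts of members called moved as follows. In chief minus parietal cells the count of 0 ranged from 0 to 7 with arrays left out and was 7 with the replicate letter as a block, a fit in which chief c drops out. In chief minus glands the count of 1 was 2 after median centring, 0 without dim genes (which removes Atp6v0d2), 2 with array weights, 3 with the block, 4 with all 13 arrays in 1 fit, 2 at a threshold of 0.1 and 1 to 2 with arrays left out. In parietal minus glands the count of 2 was 1 after repeated quantile normalization, 1 without dim genes, 10 with array weights, 6 with the block, 9 with all 13 arrays, 4 at a threshold of 0.1 and 0 to 3 with arrays left out. In ER minus EGFNWR organoids the count of 17 was 8 with all 13 arrays and 10 to 16 with arrays left out. In EGFNWR organoids minus chief cells the count of 19 was 34 after median centring, and 14 to 26 with arrays left out. Shares of all genes called in the same settings are not set beside these counts here, so the counts describe the members only. The causes were not tested.

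Among the single-gene results described below, differences that were not past the threshold changed sign in 6 cases. Atp6v0d1 ranged from -0.14 to 0.24 in chief minus glands with arrays left out. In ER minus EGFNWR it was -0.027 after quantile normalization and ranged from -0.052 to 0.11 with arrays left out. Atp6v0d2 in ER minus EGFNWR ranged from -0.082 to 0.47 with arrays left out. The single-gene results covered Atp6v0d2, Atp6v0d1 and members past the threshold in the main fit. For EGFNWR minus chief, only the largest called differences in each direction were covered. Over these results, 452 alternatives kept direction and side of the threshold, 51 lost the call and 1 gained it. Other members not called in the main fit were left out, so this tally cannot show how often calls were gained. Such gains occurred: after median centring, EGFNWR minus chief had 34 calls, 16 of them shared with the main fit. In the first experiment the letters of equal name did not settle whether arrays pair (same-letter correlations from -0.194 to 0.263). The block there is only an alternative, in the counts and among the passes given for Atp10a and Atp2a3. In the organoids the block changed only the call of Atp10d, and in EGFNWR minus chief it added Atp10a. With 2 or 3 arrays per group, leaving 1 out of 2 assumes that the lone array varies like the other groups.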
